A study of Homo sapiens with 54 samples.

Results

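The platelet-derived growth factor (PDGF) family was followed in 9 established human cell lines given calcitriol, the active form of vitamin D. It comprised 7 genes: the ligands PDGFA, PDGFB, PDGFC and PDGFD, the receptors PDGFRA and PDGFRB, and the receptor-like gene PDGFRL. Each was represented by 1 probe set, so that 7 of the 19460 probe sets with a single gene symbol were described. The genes were chosen by name after earlier results of these data, covering their levels and changes at 0, 8 and 36 h in all 9 lines, were known. Their values are therefore given as a description, and the counts of members that passed a threshold are no evidence in themselves.

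RNA of the lines was hybridised to 54 Affymetrix Gene 1.0 ST arrays, 2 for each line at 0 h without an agent and at 8 h and 36 h with calcitriol. The lines were GM07019, GM07348, GM10854 and GM12878, which are lymphoblastoid lines made by transforming B cells with Epstein-Barr virus; AG09309 and AG09319, which are fibroblast lines; HL60, a promyelocytic leukaemia line; K562, a chronic myeloid leukaemia line with erythroid features; and HepG2, a hepatoma line. No untreated cultures accompanied the later times, so each change belongs to calcitriol and to time in culture together. The sources used here do not state the dose of calcitriol. Sample titles of AG09319, HepG2 and GM12878 are in another style than those of AG09309 and the remaining lines. The labels do not say what this split means. A difference between AG09309 and AG09319 in level or change cannot be told apart from it. Titles numbered the 2 arrays of a group BR1 and BR2, which may stand for biological replicate, with nothing on how the cultures were made. The p-values therefore measure the spread between these arrays, and how much of it is technical is not known. For changes within single lines that spread was pooled for each probe set over all 27 groups. The standard error (SE) of a probe set is then the same in every line, whatever the spread in that line.

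PDGF ligands are secreted dimers that act mainly on mesenchymal cells such as fibroblasts, smooth muscle cells and pericytes. PDGFA and PDGFB are processed inside the cell, whereas PDGFC and PDGFD are secreted in a latent form and are activated when extracellular proteases remove a CUB domain. The receptors are tyrosine kinases: PDGFRA binds the A, B and C chains, and PDGFRB binds chiefly the B and D chains. Ligand binding brings receptors together, and the phosphorylated receptors recruit adaptors that feed the Ras-MAP kinase, PI3 kinase, phospholipase C gamma and STAT pathways. PDGFRL resembles the extracellular part of a PDGF receptor and has no kinase domain.

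The sequences before the transcription starts of PDGFD, PDGFRB and PDGFRA are shown because PDGFD and PDGFRB were the members that passed the test (an adjusted p under 0.05, limma) at 36 h against 0 h in both fibroblast lines and because both kinase receptors were highest in those lines. Each is the 250 bases before a start in RefSeq (GRCh38.p14), written 5′ to 3′ on the gene's strand, and the capitals mark matches to CCAAT and to GGGCGG or its reverse complement CCGCCC. PDGFD lies on the minus strand at chr11:104164148-104164397, PDGFRB on the minus strand at chr5:150155846-150156095, and the window shown for PDGFRA on the plus strand at chr4:54233710-54233959, which is the window of 1 of its 2 starts.
PDGFD: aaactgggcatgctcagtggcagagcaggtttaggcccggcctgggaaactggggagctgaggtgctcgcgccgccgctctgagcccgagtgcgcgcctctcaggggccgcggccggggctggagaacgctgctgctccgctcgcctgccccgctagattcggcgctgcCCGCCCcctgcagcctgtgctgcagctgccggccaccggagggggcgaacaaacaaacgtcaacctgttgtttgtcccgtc
PDGFRB: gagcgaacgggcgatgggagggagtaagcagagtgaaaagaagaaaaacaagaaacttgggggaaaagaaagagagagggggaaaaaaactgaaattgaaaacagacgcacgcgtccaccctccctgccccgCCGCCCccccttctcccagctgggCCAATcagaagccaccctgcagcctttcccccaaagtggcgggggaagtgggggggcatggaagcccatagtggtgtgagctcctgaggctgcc
PDGFRA: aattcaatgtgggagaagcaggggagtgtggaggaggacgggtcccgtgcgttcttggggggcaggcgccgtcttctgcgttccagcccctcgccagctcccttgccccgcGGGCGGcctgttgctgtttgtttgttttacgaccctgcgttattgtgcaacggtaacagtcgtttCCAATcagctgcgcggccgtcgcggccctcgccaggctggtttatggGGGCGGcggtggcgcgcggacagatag
The windows of PDGFRB and PDGFRA each held 1 CCAAT, 94 and 74 bases before the start, and the PDGFD window held none. Of 35116 RefSeq windows of the same length, 32% held CCAAT on either strand. GGGCGG occurred once in PDGFD and once in PDGFRB, both on the opposite strand, and at 2 places in PDGFRA; 42.6% of all windows held it. The search on both strands also covered TATAAA (10.7% of all windows), AGGTCA (12.1%), GGTTCA (7.16%), TGACTCA (4.2%) and a direct repeat of AGGTCA or GGTTCA with a spacer of 3 bases (0.0142%), the arrangement known for the vitamin D receptor with its RXR partner. None of these was in the 3 windows shown, and the window of the other PDGFRA start held none of the motifs searched, CCAAT and GGGCGG included. Motifs may overlap one another, and a match or its lack describes these letters only.

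Fibroblast markers were high in both fibroblast lines. All 8 (COL1A1, COL1A2, COL3A1, DCN, LUM, THY1, FBN1 and POSTN) lay above the array median in each array of those lines except replicate 2 at 8 h in AG09319, where 7 did. B cell markers marked the lymphoblastoid lines, hepatocyte markers HepG2, promyelocyte markers HL60 and erythroid markers K562, with exceptions at 0 h. The promyelocyte marker SRGN, at 12.4 in HL60, was also high elsewhere, as in GM07348 (10.2) and AG09309 (9.82). The erythroid marker EPOR was below the array median in K562 (5.06), as was the B cell marker CR2 in GM10854 (5.07). No monocyte, megakaryocyte or endothelial marker exceeded a log2 level of 7 in any line at 0 h. Of 6 pericyte and smooth muscle markers ACTA2 and TAGLN did, at 9.38 and 10.1 in AG09309 and 8.30 and 8.81 in AG09319, as did ACTA2 in HepG2 (7.14), while the pericyte marker RGS5 lay below the array median in these lines at 0 h. The sum of the 6 went from 39.5 and 39.1 at 0 h to 40.8 and 41.8 at 36 h in AG09309 and from 38.4 and 37.5 to 36.5 and 36.7 in AG09319; their part in the PDGF values was not tested. CYP24A1, the vitamin D catabolic enzyme and a standard target of the vitamin D receptor, rose at 36 h in AG09309, AG09319, HL60 and K562, by 6.08 ± 0.33 (adjusted p = 2.24e-16), 5.24 ± 0.33 (2.52e-13), 6.44 ± 0.33 (1.36e-16) and 2.44 ± 0.33 (0.000264) on the log2 scale (± SE, limma). The K562 value was 1.38 without replicate 1 at 36 h and did not pass. In the 4 lymphoblastoid lines CYP24A1 differed by 0.68 to 1.38, at levels below the array median, and in HepG2 by 0.57 ± 0.33 from a mean of 6.46; the 36 h arrays of these 5 lines lay above those at 0 h, and none of the differences passed. Replicate arrays correlated with a median r of 0.987 over the 27 groups. The value was 0.897 at 8 h in AG09319, where replicate 2 stood apart, 0.954 at 0 h in HepG2 (replicate 2) and 0.970 at 36 h in K562 (replicate 1).

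The arrays of AG09309 at 0 h carried B cell transcripts that the later arrays of that line did not. The summed log2 level of 6 B cell markers (MS4A1, CD79A, CD79B, PAX5, CD22 and CR2) was 35.0 and 35.2 at 0 h, 26 and 25.1 at 8 h, and 24.5 and 23.6 at 36 h. All 6 fell from 0 h to 36 h, by 0.67 to 5.13; MS4A1, which encodes CD20, went from a mean of 8.11 to 2.98 (adjusted p = 5.87e-20, limma). In AG09319 the sums ran from 25 to 29.8 and none of the 6 passed the test at 36 h. The part of these transcripts in the AG09309 levels at 0 h, and in its changes from 0 h, was not tested. The sum of the 8 fibroblast markers in AG09309 ran from 79.1 to 82.1 over its 6 arrays, and COL3A1 rose at 36 h by 0.90 (adjusted p = 0.00446).

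**Figure D1:**
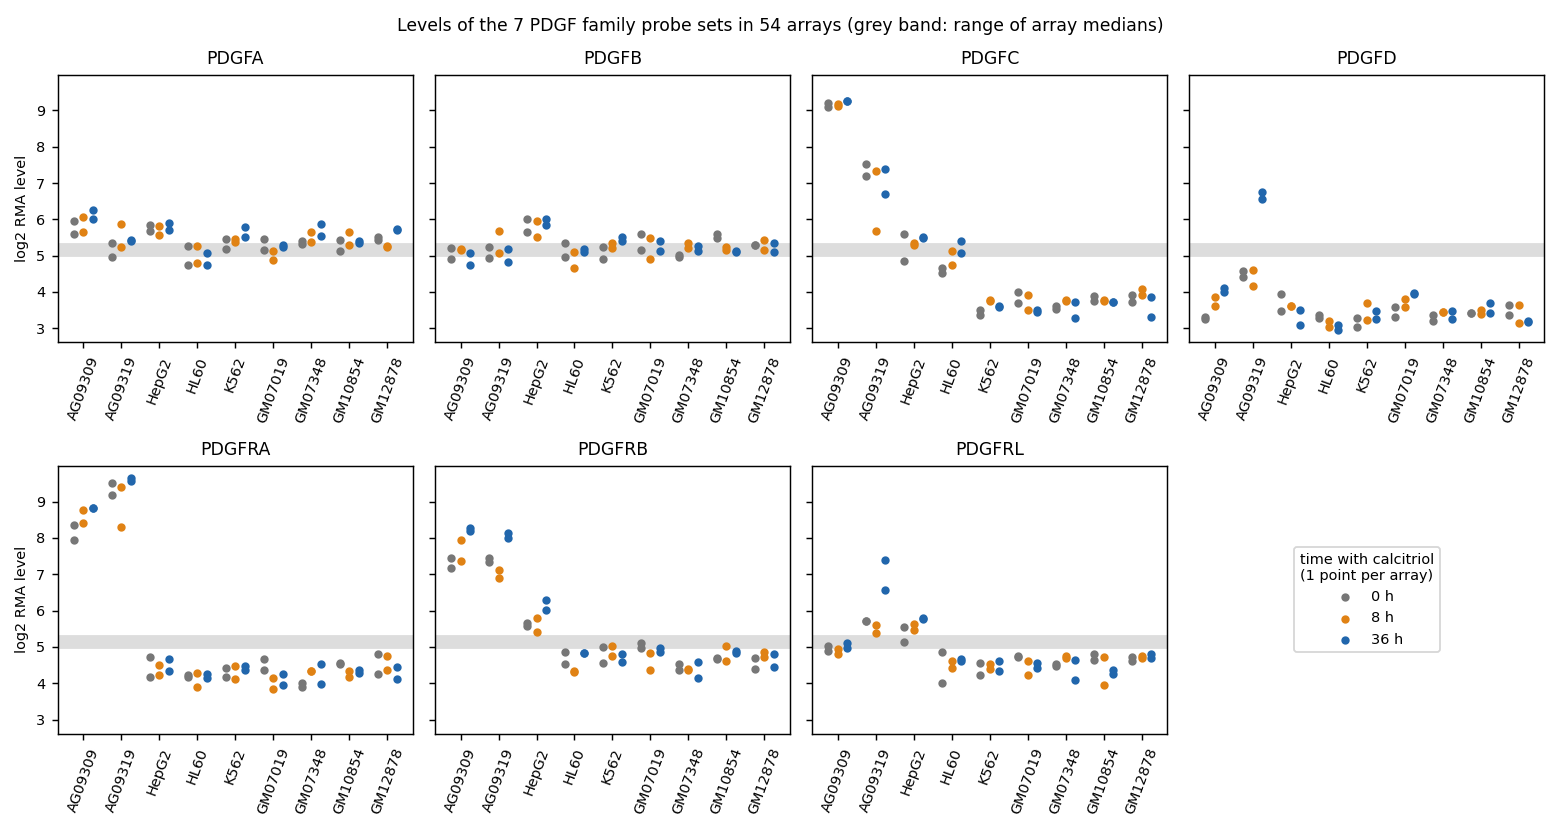
Log2 RMA level (vertical axis) of each PDGF family probe set in every array, by cell line (horizontal axis) and time (colour), with 1 point per array; the grey band spans the 54 array medians, 4.98 to 5.31. PDGFRA, PDGFRB and PDGFC are highest in AG09309 and AG09319, PDGFD and PDGFRL rise in AG09319 at 36 h, and PDGFA and PDGFB stay near the band in all lines.

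Levels are RMA values on the log2 scale, and those of different probe sets are not compared with each other. No detection calls were used, so a level near or below an array's median (4.98 to 5.31) cannot be told from background, and a difference that starts there may be understated.

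PDGFRA, the receptor for the A, B and C chains, separated the fibroblast lines from all others. Its levels in AG09309 were 8.35 and 7.93 at 0 h, 8.41 and 8.77 at 8 h, and 8.84 and 8.83 at 36 h. In AG09319 they were 9.53 and 9.19, 9.41 and 8.30, and 9.56 and 9.65. The other 42 arrays ran from 3.84 to 4.80, each below its array's median, so that no array of the 7 other lines came within 3 log2 units of a fibroblast array. At 0 h AG09319 lay above AG09309 by 1.22 with no overlap of arrays, and no order is read among the other lines, whose levels were below the median.

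PDGFRB, the receptor for the B and D chains, was also highest in the fibroblast lines, with HepG2 between them and the rest. In AG09309 it measured 7.18 and 7.46 at 0 h, 7.38 and 7.94 at 8 h, and 8.19 and 8.27 at 36 h. In AG09319 the values were 7.33 and 7.45, 7.11 and 6.89, and 7.99 and 8.13. The arrays of both fibroblast lines overlapped at 0 h and both 36 h arrays of each line stood above all its earlier ones. HepG2 gave 5.66 and 5.57 at 0 h, 5.78 and 5.42 at 8 h, and 6.01 and 6.29 at 36 h. The remaining 6 lines stayed between 4.14 and 5.11, where 0 of their 36 arrays exceeded the array median.

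PDGFRL, the receptor-like gene, was highest in AG09319, at 5.72 and 5.71 at 0 h, 5.38 and 5.6 at 8 h, and 6.57 and 7.40 at 36 h. The 36 h arrays of that line were the highest of all 54, though they differed from each other by more than those of the earlier times. In HepG2 it lay at 5.55 and 5.15, 5.47 and 5.64, and 5.79 and 5.77. AG09309 ran from 4.81 to 5.11 and the 6 other lines from 3.96 to 4.87. At 0 h the arrays of AG09319 lay above those of HepG2 without overlap.

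PDGFC, a latent ligand that acts on PDGFRA, was highest in AG09309, at 9.09 and 9.19 at 0 h, 9.13 and 9.17 at 8 h, and 9.26 and 9.25 at 36 h. AG09319 gave 7.52 and 7.18, 7.32 and 5.67, and 6.70 and 7.38; the 5.67 came from the 8 h array that stood apart. At 0 h AG09309 lay above AG09319 by 1.79, the reverse of the order for PDGFRA. HepG2 followed at 5.59 and 4.85, 5.34 and 5.30, and 5.50 and 5.48. HL60 gave 4.53 and 4.66, 5.12 and 4.75, and 5.06 and 5.40. The lymphoblastoid lines and K562 ran from 3.30 to 4.07, below the median in every array.

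PDGFD, a latent ligand of PDGFRB, was above the array median in 2 of the 54 arrays, both of AG09319 at 36 h. That line gave 4.42 and 4.57 at 0 h, 4.61 and 4.17 at 8 h, and 6.75 and 6.57 at 36 h. AG09309 gave 3.27 and 3.31, 3.6 and 3.87, and 4.10 and 3.99, all below the median. The 7 other lines ran from 2.95 to 3.97. All levels at 0 h were below the median, so no order of lines is read from them.

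PDGFA and PDGFB, the ligands processed inside the cell, varied little among lines. PDGFA ran from 4.74 to 6.25 over all arrays. Its highest arrays came from AG09309, at 5.95 and 5.59 at 0 h, 5.66 and 6.06 at 8 h, and 6.25 and 6.02 at 36 h, and these overlapped HepG2, at 5.68 and 5.86, 5.82 and 5.58, and 5.89 and 5.71. PDGFA was lowest in HL60, at 4.74 to 5.27, which overlapped AG09319 at 0 h. PDGFB ran from 4.65 to 6.02, and HepG2 was highest, at 5.65 and 6.0 at 0 h, 5.95 and 5.50 at 8 h, and 6.02 and 5.85 at 36 h. At 0 h its arrays lay above those of the next line, GM10854, and from GM10854 downward every line overlapped its neighbour. PDGFB was the only member with no group mean of 6 or more (highest 5.93).

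**Figure D2:**
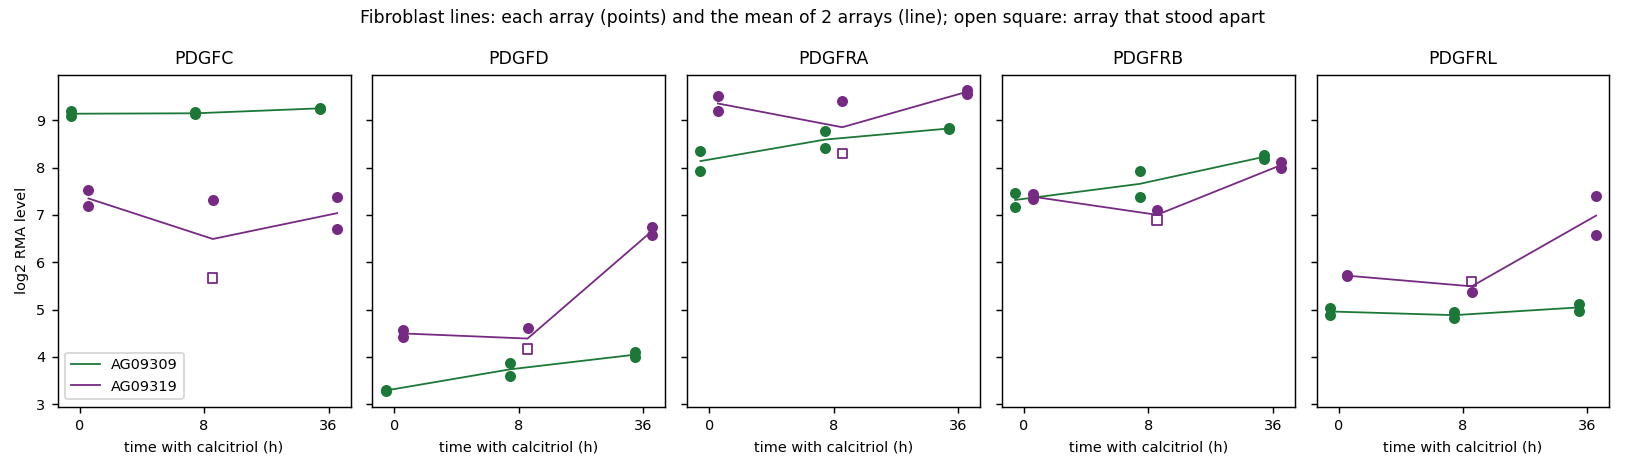
Log2 RMA level (vertical axis) against time with calcitriol (horizontal axis, evenly spaced) in AG09309 (green) and AG09319 (purple); points are arrays, lines join the means of 2 arrays, and the open square is the 8 h array of AG09319 that stood apart. PDGFRB is higher at 36 h in both lines, PDGFD moves from a mean of 4.49 to 6.66 in AG09319, and the 8 h dips of PDGFC and PDGFRA in AG09319 lie in the open square.

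Between 0 h and 36 h, PDGFD and PDGFRB rose in both fibroblast lines and PDGFRL rose in AG09319. The threshold was an adjusted p under 0.05 in limma, fitted to all 54 arrays and adjusted over all 19460 probe sets within each comparison. In all, 5 of 63 member-by-line comparisons passed it, all higher, beside 1.38% of all probe sets over the 9 lines. In AG09309 2 of 7 members passed (4.91% of all probe sets did), and in AG09319 3 of 7 (4.49%). The median change of the 7 members was 0.36 in AG09309 and 0.25 in AG09319, against 0.03 and -0.0028 over all probe sets. Because the choice of genes used these contrasts, nothing is read from the counts.

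PDGFD rose by 2.16 ± 0.18 (log2, SE) in AG09319, a 4.48-fold difference from a level below the array median, and by 0.76 ± 0.18 in AG09309, where all levels were below it. The AG09319 value was 2.07 to 2.26 on omission of any 1 of its 4 arrays and passed the threshold each time. When each line was fitted on its own 6 arrays, none of the 3 members called in AG09319 (PDGFD, PDGFRB and PDGFRL) passed, whereas both called in AG09309 did. In AG09309 the call was lost without replicate 1 at 0 h (0.74), replicate 2 at 0 h (0.78) or replicate 1 at 36 h (0.70). PDGFRB rose by 0.91 ± 0.20 in AG09309, a 1.88-fold difference, and by 0.67 ± 0.20 in AG09319, a 1.59-fold difference. The AG09309 call was lost without replicate 1 at 0 h (0.77), and that in AG09319 without any 1 of its 4 arrays (0.60 to 0.74). From 8 h, where the B cell transcripts were already low, PDGFRB in AG09309 was higher at 36 h by 0.57 ± 0.20 and PDGFD by 0.31 ± 0.18; neither passed.

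PDGFRL rose by 1.27 ± 0.23 in AG09319, and by 0.86 without replicate 2 at 36 h, which did not pass. It differed by 0.09 ± 0.23 in AG09309. PDGFRA was higher by 0.69 ± 0.25 in AG09309 with no overlap between its 0 h and 36 h arrays and did not pass; it passed after quantile normalization (0.74), without the 3 arrays that stood apart (0.69) and with array weights (0.69). In AG09319 PDGFRA differed by 0.25 ± 0.25. PDGFC differed by 0.11 ± 0.28 and -0.31 ± 0.28 in AG09309 and AG09319, PDGFA by 0.36 ± 0.21 and 0.25 ± 0.21, and PDGFB by -0.15 ± 0.21 and -0.07 ± 0.21. Beside the changes in AG09319, DCN rose by 0.82 (adjusted p = 0.00391) and the fibroblast marker sum went from 77.5 to 77.9 at 0 h to 81.4 and 80.3 at 36 h; the part of this in the PDGF values was not tested.

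The change in AG09319 was set against that in AG09309 probe set by probe set, a difference of changes that passed the threshold for 2.34% of all probe sets. As the lines also differ in title style, such a difference cannot be told apart from that split. PDGFD (difference 1.41 ± 0.26) and PDGFRL (1.18 ± 0.33) passed, both with the greater change in AG09319. The PDGFD difference passed on omission of any 1 of the 8 arrays (1.32 to 1.5), whereas that of PDGFRL was lost on omission of 7 of the 8 (0.77 without replicate 2 at 36 h in AG09319). PDGFRB differed by -0.24 ± 0.28 and PDGFRA by -0.45 ± 0.35; neither passed, which does not show that the lines changed alike.

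**Figure D3:**
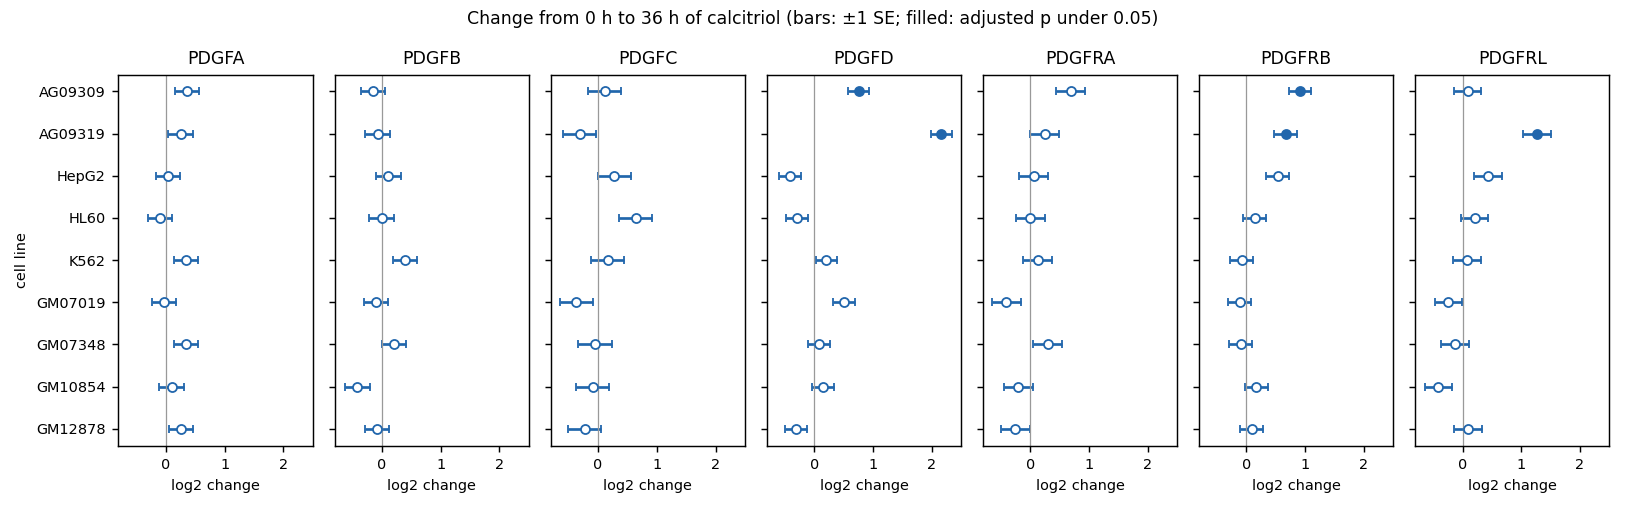
Difference between 36 h and 0 h (horizontal axis, log2) of each PDGF family member in each cell line (vertical axis), as the difference of means of 2 arrays with bars of 1 SE from the limma fit; filled points passed an adjusted p under 0.05. The 5 filled points lie in AG09309 and AG09319, with PDGFD in AG09319 at 2.16 the highest.

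Across the 7 other lines 0 of 49 member-by-line comparisons passed at 36 h against 0 h (limma), beside 0.435% of all probe sets. Without adjustment 4 had a p under 0.05 (limma), as did 533 to 2102 of all 19460 probe sets in each of these lines. The changes ran from -0.42 to 0.64. The 4 under 0.05 unadjusted were PDGFC in HL60 (0.64 ± 0.28), PDGFRB in HepG2 (0.54 ± 0.20), and PDGFD in GM07019 and HepG2. PDGFD differed by 0.51 ± 0.18 in GM07019 (from 3.45 to 3.96) and by -0.41 ± 0.18 in HepG2 (from 3.71 to 3.30), below the median in both. Its HepG2 arrays overlapped, at 3.47 and 3.96 at 0 h and 3.10 and 3.50 at 36 h. The 3.96 came from the 0 h array that stood apart. The PDGFRB difference in HepG2 was 0.49 without the 0 h array that stood apart, and it passed after quantile normalization (0.62). In 21 of the 49 the later arrays did not overlap the earlier ones, beside 36.9% of all probe sets in these lines.

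At 8 h against 0 h 0 of 63 member-by-line comparisons passed (limma), beside 0.233% of all probe sets. Without adjustment, 1 member in AG09309, 2 in AG09319 and 2 of 49 in the other lines had a p under 0.05 (limma). So did 1385 of all 19460 probe sets in AG09309, 5220 in AG09319 and 212 to 942 in each other line. By line the share of all probe sets called was 1.53% in AG09309, 0.324% in AG09319 and 0.0345% in the 7 others. In AG09309 PDGFD differed by 0.45 ± 0.18, PDGFRA by 0.45 ± 0.25 and PDGFRB by 0.34 ± 0.20. In AG09319 PDGFC differed by -0.86 ± 0.28 and PDGFRA by -0.50 ± 0.25, with the 8 h array that stood apart the lowest in both. The changes in the 7 other lines ran from -0.52 to 0.39, and 18 of 49 did not overlap, beside 33% of all probe sets there. In AG09319 at 8 h, replicate 2, the array that stood apart, gave 5.67 for PDGFC and 8.30 for PDGFRA, against 7.32 and 9.41 in replicate 1.

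Between 8 h and 36 h 4 of 63 comparisons passed, beside 2.27% of all probe sets, and all 4 were higher in AG09319. In that line 18% of all probe sets passed. PDGFD rose by 2.27 ± 0.18, PDGFRL by 1.5 ± 0.23, PDGFRB by 1.05 ± 0.20 and PDGFRA by 0.75 ± 0.25. Without the 8 h array that stood apart these were 2.05, 1.61, 0.94 and 0.19, and PDGFRA no longer passed; it also did not pass without replicate 1 (0.80) or replicate 2 (0.70) at 36 h. With array weights only PDGFD of the 4 passed, and on the line's own 6 arrays none did. PDGFD and PDGFRL again passed for the difference between AG09319 and AG09309 (1.96 ± 0.26 and 1.33 ± 0.33; PDGFRL was 0.92 and did not pass without replicate 2 at 36 h in AG09319, nor without any 1 of the 8 h and 36 h arrays of AG09309), as did 0.997% of all probe sets. In AG09309 0 of 7 members passed (limma), beside 0.38%. There 1 member had an unadjusted p under 0.05 (limma), as did 1903 of all 19460 probe sets. In the 7 other lines 0 of 49 passed (limma), beside 0.294%. Without adjustment 3 had a p under 0.05 (limma), as did 261 to 1884 of all probe sets in each line. The changes ran from -0.42 to 0.55, and 20 of 49 did not overlap, beside 36% of all probe sets there. PDGFRB in HepG2 (0.55 ± 0.20) passed after quantile normalization (0.64) and with array weights (0.55).

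With the line as the replicate, no member passed in the mean over lines. For 36 h against 0 h the mean over 9 lines was 0.32 ± 0.18 for PDGFD (higher in 6 of 9 lines), 0.25 ± 0.11 for PDGFRB (6 of 9) and 0.17 ± 0.07 for PDGFA (7 of 9). There 2 members had an unadjusted p under 0.05 (limma), as did 2710 of all 19460 probe sets. In that mean 0.468% of all probe sets passed. The 8 h comparison called 0% of all probe sets (limma), with 542 of them and no member under 0.05 unadjusted. For 36 h against 8 h it was 0.37%, with 3806 probe sets and 1 member under 0.05 unadjusted (limma). Over the 4 lymphoblastoid lines 0 of 7 members passed at 36 h against 0 h (limma), beside 1.14% of all probe sets. Without adjustment 1 member and 2860 of all probe sets had a p under 0.05 (limma). PDGFC there was lower in 4 of 4 lines by a mean of -0.19 ± 0.09, at levels below the array median, and PDGFA was higher in 3 of 4 by 0.17 ± 0.10. The share of all probe sets called in the lymphoblastoid mean was 0.0257% at 8 h and 0.283% for 36 h against 8 h. An unadjusted p under 0.05 was found there for 0 and 2 members, and for 616 and 1551 of all probe sets (limma).

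The genes that act with the PDGF family were taken from a list of 63 (co-receptors and receptor regulators, ligand processing, adaptors and effectors, feedback inhibitors, and growth-factor-induced transcripts), of which 52 had a probe set with 1 symbol. Over the 9 lines 5 of 468 gene-by-line comparisons were higher and 6 lower at 36 h against 0 h, or 2.35%, beside 1.38% of all probe sets. At 8 h 0 were higher and 4 lower (0.855% beside 0.233%), and 8 were higher and 6 lower at 36 h against 8 h (2.99% beside 2.27%). The median change of the 52 genes at 36 h was 0.05 in AG09309 and -0.07 in AG09319.

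In AG09309 1 of the 52 genes rose and 4 fell by 36 h. Among the growth-factor-induced transcripts FOS, a subunit of the AP-1 factor, fell by 3.82 ± 0.20 (adjusted p = 3.98e-17), EGR1, a zinc finger factor, fell by 1.73 ± 0.17 (1.6e-09) and JUNB, another AP-1 subunit, fell by 0.75 ± 0.16 (0.00212). These 3 had already fallen at 8 h, with differences of -4.13, -2.42 and -1.02, when STAT5A also fell by 0.76 (adjusted p = 0.0109). SPRY2, a feedback inhibitor of receptor tyrosine kinase signalling, fell by 0.81 ± 0.19 (adjusted p = 0.00786). The adaptor SHC1 rose by 0.55 ± 0.15 (adjusted p = 0.025). The falls of FOS and EGR1 passed on omission of any 1 array, as did that of JUNB at 8 h; at 36 h JUNB was lost without replicate 2 at 0 h or replicate 1 at 36 h. SPRY2 was lost on omission of any 1 array (-0.82 to -0.79), SHC1 without either 0 h array or replicate 2 at 36 h (down to 0.41), and STAT5A without either 0 h array or replicate 1 at 8 h (-0.53 at the smallest). These are the arrays in which the B cell marker sum went from 35.0 and 35.2 to 24.5 and 23.6.

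In AG09319 2 genes rose and 2 fell by 36 h. PLAU, the urokinase that can activate PDGFD, fell by 1.18 ± 0.19 (adjusted p = 3.98e-05), and SPRY2 fell by 0.65 ± 0.19 (0.0433). EGR1 rose by 0.58 ± 0.17 (adjusted p = 0.0347) and STAT3 by 0.57 ± 0.16 (0.0301). PLAU passed on omission of any 1 array (-1.22 to -1.14), and the other 3 were each lost on omission of any 1 of the 4 arrays. From 8 h to 36 h 6 genes rose and 6 fell in this line, in the comparison where 18% of all probe sets passed. The guanine nucleotide exchange factor SOS1, the adaptor NCK1, the receptor-associated LRP1, STAT3, EGR1 and the kinase FYN rose by 1.21, 1.11, 1.0, 0.99, 0.87 and 0.87. PLAU, the proteases ST14, PCSK5, PLAT and PCSK7, and the feedback inhibitor SPRY4 fell, with differences of -1.02, -0.76, -0.74, -0.71, -0.52 and -0.66. Adjusted p-values of these 12 ran from 4.55e-05 for STAT3 to 0.0183 for SPRY4 (limma). PLAU, LRP1, STAT3 and EGR1 passed on omission of any 1 array. Without the 8 h array that stood apart SOS1 was 0.43, NCK1 0.47, FYN 0.60, ST14 -0.31, PCSK5 -0.35 and PCSK7 -0.51, and none of these 6 passed. PLAT was lost without replicate 1 at 8 h (-0.41) or either 36 h array, and SPRY4 without replicate 1 at 8 h (-0.39) or replicate 1 at 36 h. Replicate 1 or 2 at 36 h also decided PCSK5, PCSK7, ST14 and SOS1.

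Outside the fibroblast lines 2 pathway genes passed in single lines at 36 h against 0 h. LRP1, a large endocytic receptor that associates with PDGFRB, rose by 0.96 ± 0.18 in HL60 (adjusted p = 0.0015), and EGR1 rose by 0.96 ± 0.17 in K562 (0.00738), where replicate 1 at 36 h stood apart. Both were also called against 8 h, at 0.96 and 1.63. There the LRP1 call was lost on omission of any 1 of its 4 arrays (0.92 to 0.99), and the EGR1 call was kept each time (1.34 to 1.91). For 36 h against 0 h LRP1 passed on omission of any 1 array, and EGR1 in K562 did not pass without either 0 h array or replicate 1 at 36 h (0.67). In the lymphoblastoid lines and HepG2, 0 of the 52 genes passed in any single line (limma). For 36 h against 0 h, 2 to 6 a line had an unadjusted p under 0.05 (limma), as did 533 to 2102 of all 19460 probe sets. In the mean over the 4 lymphoblastoid lines PTPN2, a phosphatase that acts on the PDGF receptors, rose at 36 h against 0 h by 0.58 ± 0.10 (higher in 4 of 4 lines, adjusted p = 0.00434, limma), and the call was lost without GM10854 (0.44). Of a second list of 15 related growth factors and receptors of the VEGF, KIT and CSF1 families, 14 were measured. VEGFA, an angiogenic ligand, rose by 0.84 ± 0.22 in AG09309 (adjusted p = 0.017), and PGF, a VEGF family ligand, rose by 1.09 ± 0.19 in AG09319 (0.000124). KIT, a receptor of the same kinase class as the PDGF receptors, fell by 1.78 ± 0.26 in HL60 (adjusted p = 2.36e-05). From 8 h to 36 h in AG09319, PGF, KITLG (the KIT ligand) and KIT rose by 1.60, 1.12 and 0.90, and FLT4, a VEGF receptor, fell by 0.81. The PGF calls and that of KIT in HL60 passed on omission of any 1 array, and VEGFA was lost on omission of any 1 (0.72 to 0.95). VEGFA also rose in the mean over the 9 lines at 36 h against 0 h, by 0.41 ± 0.07 (higher in 9 of 9 lines, adjusted p = 0.00594, limma; 0.35 to 0.44 and called without any 1 line), and against 8 h by 0.33 ± 0.07 (8 of 9, adjusted p = 0.0448), where omission of any 1 of 7 lines lost the call. Without the 8 h array of AG09319 that stood apart KITLG was 0.10, KIT 0.92 and FLT4 -0.46, and none of them passed; replicate 2 at 36 h also decided these 3, as did replicate 1 for KITLG.

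**Figure D4:**
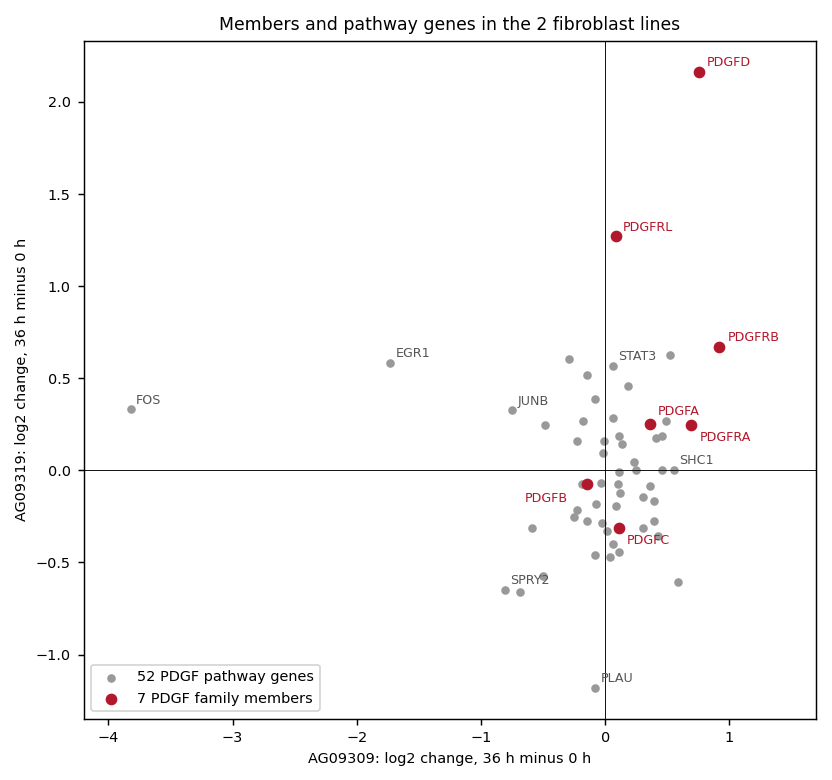
Difference between 36 h and 0 h (log2) in AG09309 (horizontal axis) and AG09319 (vertical axis) for the 7 PDGF family members (red) and the 52 measured pathway genes (grey); named grey points passed an adjusted p under 0.05 in AG09309, AG09319 or both. FOS lies at -3.82 in AG09309, PDGFD at 0.76 and 2.16, and PDGFRB at 0.91 and 0.67.

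Likeness of pattern was measured by Pearson's r over the 27 group means, with 3 times per line, so that the points share lines and arrays. Among members PDGFRA and PDGFRB gave 0.942, PDGFC and PDGFRB 0.925, PDGFRA and PDGFC 0.870 and PDGFD and PDGFRL 0.790. PDGFRA, PDGFRB and PDGFC were highest in the fibroblast lines, and PDGFD and PDGFRL in AG09319 at 36 h (6.66 and 6.99). Groups that stand out in this way weigh heavily on r. PDGFA and PDGFB stayed near the array medians, so their values may partly reflect background. The probe sets most like PDGFRA were COL12A1 (0.997), THBS2 (0.996) and FBLN5 (0.996), a collagen and other extracellular matrix proteins. Those most like PDGFRB were AMOTL2 (0.987), MYLK (0.986), the myosin light chain kinase, and PSD3 (0.986). PDGFC was nearest to SOCS5 (0.985), FEZ2 (0.968) and UBASH3B (0.967). PDGFD was nearest to SLC2A12 (0.942), APOD (0.929), the lipocalin apolipoprotein D, and GFRA1 (0.917), and PDGFRL to IL1R1 (0.927), PGF (0.926) and GPX3 (0.919). For PDGFB they were KANK4 (0.934), AGXT (0.929) and LLGL2 (0.928), and for PDGFA KCNMB4 (0.821), HAPSTR1 (0.797) and NT5DC2 (0.790).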

How the data were processed

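Total RNA from each culture was hybridised to Affymetrix Gene 1.0 ST arrays. The deposited log2 values were produced by the authors in Affymetrix Expression Console 1.0 with RMA, per the submitters' processing notes; the sources used here do not state whether the arrays were normalized as 1 set. Groups follow the cell line and time labels (the titles of GM10854 name another line). Of 33297 probe sets, 21214 were in the probe-to-gene table and 19460 had 1 symbol; all 19460 were tested, with no filter on low values. limma 3.58.1 in R 4.3.3 fitted 27 groups at once (27 residual degrees of freedom), with contrasts within each line, Benjamini-Hochberg adjustment and a threshold of 0.05; the number of arrays limits the precision. Fits over lines used group means. A probe set was called non-overlapping when both later arrays lay outside the range of both earlier ones. Array scripts were tested on simulated data. Promoters come from RefSeq (GRCh38.p14).

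The members and gene lists were chosen with earlier results of these data known. Named were all members in all lines, CYP24A1, and the list genes that passed with non-overlapping arrays (up to 6 per direction, line and time). List genes that passed in a mean over lines or in the difference between the fibroblast lines were named too. So were the 3 probe sets most like each member among those with a group mean of at least 6. Alternatives were quantile normalization, centring on array medians, array weights, a low-value minimum of 6 (passed by 6 of 7 members), 1 probe set per gene, all probe sets, fits per line, a replicate block, and omission of single arrays, of the 3 arrays that stood apart and of lines. PDGFD (6.66) and PDGFRL (6.99) reached the minimum only in AG09319 at 36 h, and PDGFA (6.14) only in AG09309 at 36 h. Calls of PDGFD and PDGFRL kept under it are in the tally below and are no support.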

Additional observations from a re-analysis of the deposited data

Results flagged for a closer look

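Differences between the fibroblast lines in their change were singled out by a test of the difference itself (change in AG09319 minus change in AG09309, log2 ± SE, limma). The arrays of AG09309 at 0 h held the B cell transcripts described above, and their part in these values was not tested. The split of title styles also lies between these lines. For 36 h against 0 h the members were PDGFD at 1.41 ± 0.26 and PDGFRL at 1.18 ± 0.33. For 36 h against 8 h they were PDGFD at 1.96 ± 0.26 and PDGFRL at 1.33 ± 0.33. The latter rests on the 8 h arrays of AG09319, which correlated at 0.897, and 18% of all probe sets passed in that line. With array weights the PDGFRL rise in AG09319 from 8 h did not pass (adjusted p = 0.159, limma).

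Among list genes, FOS differed by 4.15 (adjusted p = 1.99e-13), EGR1 by 2.31 (1.63e-08) and JUNB by 1.08 (0.00288), each with a fall in AG09309. PGF differed by 1.5 (adjusted p = 0.000354). PLAU differed by -1.10 (0.0139), CCL2, a chemokine, by -1.20 (0.0292) and AKT1, a PI3 kinase effector, by -0.78 (0.0369). CCL2 and AKT1 did not pass in either line alone.

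On omission of 1 array at a time, the differences of PDGFD, FOS, EGR1, JUNB and PGF passed each time. PDGFRL was lost in 7 of 8 omissions for 36 h against 0 h and 5 of 8 for 36 h against 8 h, AKT1 in 7 of 8 (-0.90 to -0.66), CCL2 in 5 of 8 (-1.35 to -1.05) and PLAU in 4 of 8 (-1.16 to -1.03).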

How the results depend on the processing

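Member calls at 36 h against 0 h numbered 5, and 2, both in AG09309, when each line was fitted on its own 6 arrays; leaving out 1 array gave 3 to 6 (3 without AG09309 0 h replicate 1 or AG09319 36 h replicate 2). At 8 h they numbered 0, and 0 to 4 with 1 array left out (4 without AG09319 8 h replicate 1). At 36 h against 8 h they numbered 4, 0 on a line's own 6 arrays and 2 with array weights (PDGFD in AG09319 and, gained, PDGFRB in HepG2); leaving out 1 array gave 3 to 6. Pathway calls at 36 h against 0 h numbered 11, and 17 after quantile normalization, 19 without the 3 arrays that stood apart and 20 with array weights; leaving out 1 array gave 7 (AG09309 0 h replicate 2) to 15. At 8 h they numbered 4, and 3 to 27 with 1 array left out (27 without AG09319 8 h replicate 1). At 36 h against 8 h they numbered 14, 26 after quantile normalization, 1 on a line's own 6 arrays and 8 with array weights; leaving out 1 array gave 10 to 31 (31 without AG09319 8 h replicate 1, 23 without K562 36 h replicate 2).

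With a replicate block the member calls were 5, 0 and 4 and the pathway calls 10, 4 and 15 in the same order of comparisons. The replicate numbers are not known to pair the arrays: correlations of deviations between times ran from -0.41 to 0.58. No replicate block was run for means over lines, in which arrays are averaged. No called value changed sign. Member differences kept their side of the threshold under 125 alternatives, lost the call under 25 and gained it under 6. This tally covers member differences called in the main fit or under an alternative other than omission of 1 array. Calls gained only on such an omission are therefore not in it. Shares of all probe sets called on omission of single arrays are not given, so nothing is read from the member counts there. Called results of list genes, CYP24A1 and the differences between the fibroblast lines kept the call under 630 alternatives and lost it under 154. Only results called in the main fit entered this second tally, so no gain could appear in it. Of these 58 results, 21 kept the call throughout. With the replicate block the PDGFRL difference (1.18, adjusted p = 0.0541, limma) and SPRY2 in AG09319 at 36 h against 0 h (-0.65, 0.0657) lost their calls. Levels below the array median limit PDGFD in AG09309 and most members outside the fibroblast lines.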

Other observations

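An eighth probe set carried the symbols EBF1 and PDGFRB together and was left out because it names more than 1 gene. EBF1 encodes a B cell transcription factor. The level of this probe set was 5.53 to 7.69 over the 24 lymphoblastoid arrays, 5.31 to 5.84 in AG09309, 5.12 to 6.04 in AG09319 and 4.35 to 5.22 in HL60, K562 and HepG2. GM12878 at 0 h gave 7.16 in both arrays. The order of lines was thus unlike that of the PDGFRB probe set, which was highest in both fibroblast lines.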
